A study of Mus musculus with 6 samples.

Results

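In the prefrontal cortex of mice with ischemic chronic heart failure (CHF), 4 of the 5 measured genes furthest below sham-operated mice were ones that neurons switch on within minutes of firing: Npas4, Arc, Junb and Nr4a1. The comparison rests on 1 library from CHF mice and 1 from sham mice. A gene was taken as measured when both libraries held at least 100 unique gene reads, that is reads placed on 1 gene only, and it had an RPKM (exon reads scaled by gene length and by the library's gene reads), which left 10747 of 35485 listed features. The cells of interest are the neurons and glia of a cortical region that serves planning, motivation and the control of mood, and whose tissue also carries vessels and some of the covering meninges.

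Male C57BL/6 mice, of the C57BL/6N substrain by the study's methods, had either a permanent ligation of the left anterior descending coronary artery, which leaves a large myocardial infarct (CHF), or a thoracotomy in which the vessel was left untied (sham). Tissue was taken 8 weeks after operation, and equal amounts of RNA from 3 CHF mice and from 6 sham mice were pooled. All mice had been housed singly after surgery and had gone through repeated sucrose preference tests and a battery of behavioral tests. Hippocampus and left ventricle were pooled and sequenced in the same way, and they serve here only to place the prefrontal values. With pooled tissue, a lower value can mean fewer cells of a type or less RNA per cell, and these cannot be told apart. There is no replicate library, so a ratio below is a description of these 2 pools, and the 95% intervals given with it (Clopper-Pearson, from the unique reads) cover counting error only.

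The CHF library held 18.5 M unique gene reads and the sham library 22.4 M. Neuron markers were present: all 11 found in the tables were measured, and Slc17a7, the vesicular glutamate transporter of cortical excitatory neurons, had 195 RPKM in CHF and 202 RPKM in sham. In hippocampus Slc17a7 also had 62648 unique reads in CHF and 61867 in sham, so these markers alone do not identify prefrontal cortex. Of 12 choroid plexus and 10 ependymal markers only 1 each reached the read minimum, as did 3 of 14 hippocampal markers. Of 16 listed striatal markers 11 were measured, and their median log2 ratio was 0.01.

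Immediate early genes are transcribed in the first minutes after synaptic activity, without the need for new protein. Calcium entry activates kinases that phosphorylate CREB and the serum response factor complex, and these switch on a first wave of transcription factors and of effectors that act at the synapse. Because the RNAs are short-lived, their level follows what the animal did shortly before the tissue was taken. Phosphatases of the DUSP family are induced by the same signals and shut the kinases off again.

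CREB binds the cAMP response element, whose core is the pentamer TGACG, or CGTCA on the other strand. The 250 bases upstream of the start site are shown for the transcription factors past the larger threshold used below and for the phosphatase Dusp1. For contrast they are also shown for Fosb, like Junb a subunit of the AP-1 transcription factor, whose ratio was near 0. Sequences are from RefSeq, GRCm38.p6, read on the gene's own strand, and capitals mark the core on either strand.
Npas4 (chr19:4989972-4990221, minus strand): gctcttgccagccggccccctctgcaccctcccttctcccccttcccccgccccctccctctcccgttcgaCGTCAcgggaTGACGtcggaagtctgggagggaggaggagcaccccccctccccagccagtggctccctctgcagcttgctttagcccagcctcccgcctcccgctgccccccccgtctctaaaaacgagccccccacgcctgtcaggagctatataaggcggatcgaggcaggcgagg
Junb (chr8:84978749-84978998, minus strand): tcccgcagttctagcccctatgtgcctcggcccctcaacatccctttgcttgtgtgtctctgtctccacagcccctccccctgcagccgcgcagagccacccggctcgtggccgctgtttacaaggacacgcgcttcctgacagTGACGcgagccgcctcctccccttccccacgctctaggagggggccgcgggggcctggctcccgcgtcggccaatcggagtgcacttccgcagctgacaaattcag
Nr4a1 (chr15:101266596-101266845, plus strand): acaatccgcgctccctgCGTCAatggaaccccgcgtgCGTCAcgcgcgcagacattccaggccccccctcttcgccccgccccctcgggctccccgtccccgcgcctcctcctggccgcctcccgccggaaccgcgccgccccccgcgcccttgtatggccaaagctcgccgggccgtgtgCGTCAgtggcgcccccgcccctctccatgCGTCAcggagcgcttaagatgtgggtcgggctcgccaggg
Dusp1 (chr17:26508473-26508722, minus strand): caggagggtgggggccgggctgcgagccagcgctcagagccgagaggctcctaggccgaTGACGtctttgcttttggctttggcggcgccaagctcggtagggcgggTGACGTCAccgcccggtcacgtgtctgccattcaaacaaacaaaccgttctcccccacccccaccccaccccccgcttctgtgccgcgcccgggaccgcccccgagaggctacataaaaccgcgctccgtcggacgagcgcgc
Fosb (chr7:19310046-19310295, minus strand): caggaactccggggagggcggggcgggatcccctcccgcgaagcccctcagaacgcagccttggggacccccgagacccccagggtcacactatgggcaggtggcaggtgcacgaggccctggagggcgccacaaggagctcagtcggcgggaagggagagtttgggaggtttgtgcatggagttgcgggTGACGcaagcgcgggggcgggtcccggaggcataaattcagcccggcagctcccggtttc

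The cores start 179 and 169 bases upstream of the start site in Npas4, 106 bases in Junb, 60 bases in Fosb, and at 4 places in Nr4a1. Dusp1 has a core 191 bases upstream and a full element, TGACGTCA, 143 bases upstream. The core was present in 17.8% of 32851 mouse promoter windows of the same length and the full element in 1.55%. Among the immediate early regulators with a promoter in the table, the core was present for 9 of the 10 genes that were lower past the 0.3 rule described below and for 6 of the 10 that were not. Among the activity-induced effectors it was present for 1 of the 3 lower genes and for 9 of the 14 others, so the difference ran the other way there. The full element was present for 0 of 10 lower and 1 of 10 other regulators, and for 0 of 3 lower and 4 of 14 other effectors. A gene with several windows counted as positive if any of them held the motif, so these gene counts and the window shares are not directly comparable. The match of these letters describes the sequence and is no evidence of binding.

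Ratios are given as log2 of the RPKM in CHF over that in sham, and 2 rules were used to count genes. The study's threshold asks for a log2 ratio of 0.9 or more in either direction, a fold of 1.87. A second rule, called the 0.3 rule here, asks for a log2 ratio of at least 0.3, a fold of 1.23, together with a counting interval on the same side of 0. Past 0.9, 1 gene was higher in CHF (0.0093% of the measured genes) and 5 were lower (0.0465%). By the 0.3 rule 197 genes were higher (1.83%) and 304 lower (2.83%), 501 together (4.66%). These shares are the background for each prefrontal list count below.

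The ratios were narrow. Their median was -0.01 and their SD 0.15, and 94.5% of genes lay within 0.3 of 0. The spread shrank with depth: the SD was 0.21 among the 2602 genes with a mean of 100 to 300 reads and 0.10 among the 1444 genes with 3000 or more. Of the first group 11.2% passed the 0.3 rule, 130 higher and 162 lower, and of the second 1.04%, 3 higher and 12 lower. Genes with few reads thus made up most of the genes past the rule in both directions, and the well covered ones among them were mostly lower.

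**Figure D1:**
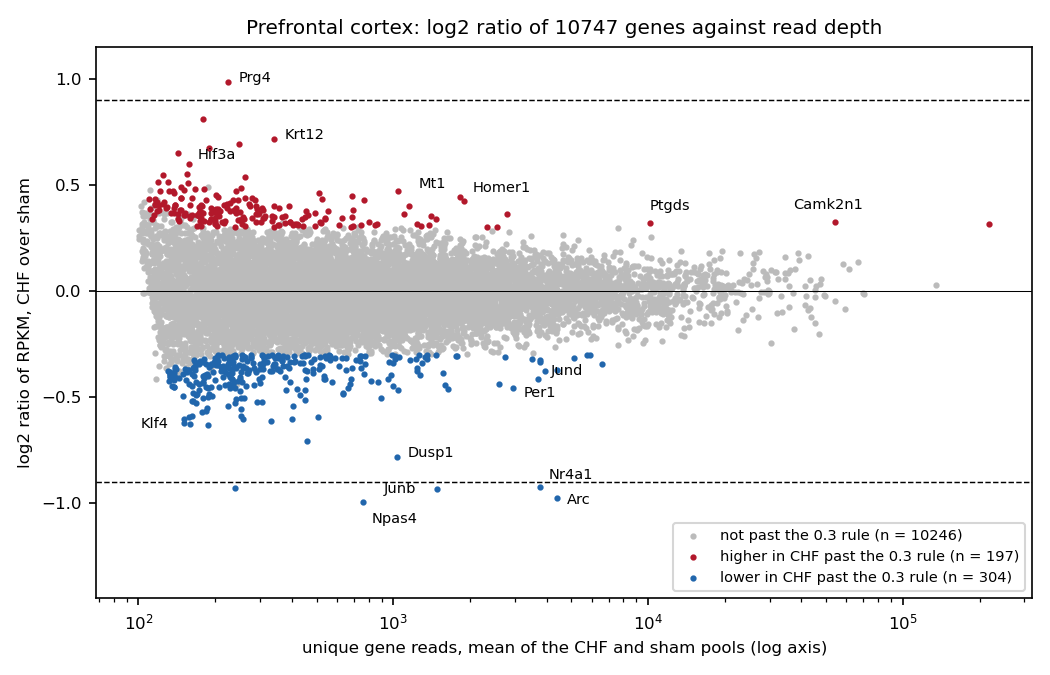
Each point is 1 of 10747 genes, with the mean number of unique gene reads of the CHF and sham pools on a log axis and the log2 ratio of RPKM, CHF over sham, on the other. Dashed lines mark 0.9 and -0.9; Npas4, Arc, Junb and Nr4a1 lie below the lower line at high read numbers, while Prg4 alone lies above the upper one.

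The 4 activity-induced genes past 0.9 were well covered. Npas4, a neuron-specific transcription factor that controls inhibitory synapses, had 447 unique reads in CHF and 1076 in sham, which is 3.94 RPKM against 7.86 RPKM, 1.99-fold lower in CHF (log2 -0.995, interval -1.16 to -0.83). Arc, whose protein promotes the removal of AMPA receptors from synapses, had 2596 reads in CHF and 6161 in sham and was 1.97-fold lower (log2 -0.97, interval -1.04 to -0.91).

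Junb, a subunit of the AP-1 transcription factor, had 902 reads in CHF and 2080 in sham, a log2 ratio of -0.93 (interval -1.05 to -0.82). Nr4a1, an orphan nuclear receptor, had 2289 reads in CHF and 5246 in sham, a log2 ratio of -0.92 (interval -0.99 to -0.85). All reads of these 4 genes were unique. In the hippocampal pools the same genes had log2 ratios of -0.21 for Npas4, -0.23 for Arc, 0.12 for Junb and -0.09 for Nr4a1.

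Of 28 listed immediate early transcription regulators 25 were measured. By the 0.3 rule 11 were lower (44.0%) and 0 higher, against 2.83% and 1.83% of all measured genes. The list's median log2 ratio was -0.21 against -0.01 over all genes. Ratios of 21 of the 25 lay below 0. After the 3 regulators above came Klf4, a zinc finger factor, with 112 reads in CHF and 208 in sham (log2 -0.63, interval -0.96 to -0.28). Nr4a3, a relative of Nr4a1, had 232 reads in CHF and 428 in sham (log2 -0.61).

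Per1, which is both a clock gene and a gene induced by activity, had 2220 reads in CHF and 3685 in sham (log2 -0.46, interval -0.53 to -0.38). Jund, another AP-1 subunit, had 2838 and 4577 reads in CHF and sham (log2 -0.42). The remaining lower regulators were Ier2 (-0.41), Egr2 (-0.40), Csrnp1 (-0.38) and Egr4 (-0.30). The lower group thus spanned the AP-1, NR4A, EGR and KLF families.

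Not every regulator was low, and the families were split. Egr1, the EGR gene with the most reads, had 7992 reads in CHF and 10153 in sham, a log2 ratio of -0.07 (interval -0.11 to -0.03), and Egr3 had -0.13. Fos, the classical marker of recent firing, had 378 reads in CHF and 555 in sham, a log2 ratio of -0.28 (interval -0.47 to -0.09) that stayed short of the rule. Fosb (0.08), Fosl2 (0.09), Klf6 (0.13) and Nr4a2 (0.24, interval -0.03 to 0.49) had ratios above 0, in families where Junb, Klf4, Nr4a1 and Nr4a3 were lower.

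**Figure D2:**
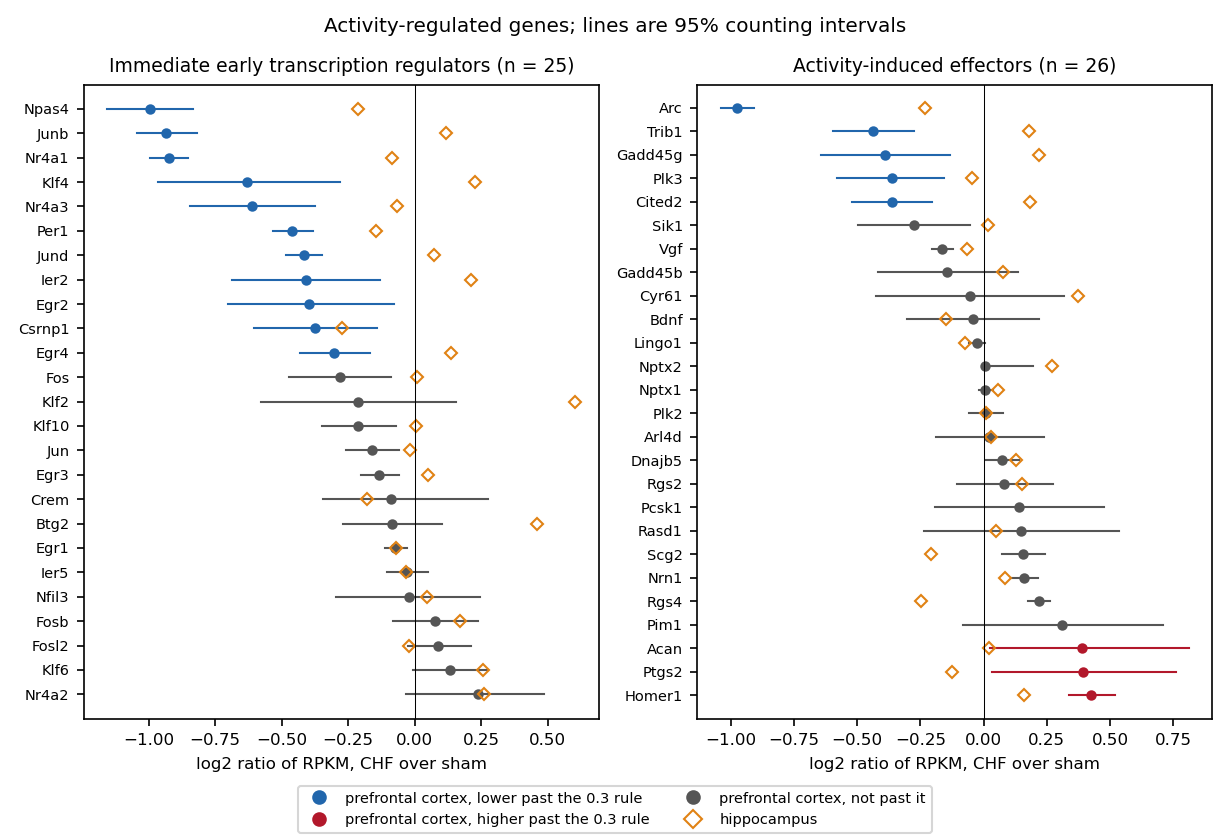
Log2 ratios of RPKM, CHF over sham, of the measured immediate early regulators (left, n = 25) and activity-induced effectors (right, n = 26), with lines for the 95% counting interval and open diamonds for the hippocampal ratio of the same gene. The ratios of 11 regulators lie at -0.30 or lower and none passes the 0.3 rule upward, while effectors extend from -0.97 for Arc to 0.43 for Homer1.

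Effectors of activity were split in direction. Of 31 listed, 26 were measured, 3 were higher and 5 lower by the 0.3 rule, and their median log2 ratio was 0.01. Beside Arc, the lower ones were Trib1, a scaffold of protein degradation (log2 -0.44), Gadd45g, a stress-induced regulator of growth arrest and DNA demethylation (-0.39), the kinase Plk3 (-0.36) and the transcriptional co-regulator Cited2 (-0.36).

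Homer1, a scaffold of metabotropic glutamate receptors that has a short activity-induced form, went the other way with 2003 reads in CHF and 1801 in sham (log2 0.43, interval 0.34 to 0.52). The counts cover the whole gene and do not separate its forms. Ptgs2, the inducible cyclooxygenase (0.39), and Acan, the core protein of perineuronal nets (0.39), had few reads, 135 and 117 in CHF against 124 and 106 in sham. Bdnf, the neurotrophin, had a log2 ratio of -0.04 (interval -0.30 to 0.22), and Vgf, a secreted neuropeptide precursor, one of -0.17 with 8387 reads in CHF and 11362 in sham.

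The kinase phosphatases and feedback inhibitors held 4 lower and 0 higher genes of 16 measured, with a median of -0.10. Dusp1, which inactivates MAP kinases in the nucleus, had 672 reads in CHF and 1395 in sham, 1.72-fold lower (log2 -0.78, interval -0.91 to -0.65), just short of the study's threshold. Its hippocampal ratio was 0.33 (interval 0.17 to 0.49). Dusp5 (-0.45), Dusp16 (-0.45) and Spry4, an inhibitor of receptor tyrosine kinase signaling (-0.34), were the others.

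The kinases, calcium sensors and transcription factors that lie upstream showed no gene past the rule. All 30 measured members had log2 ratios between -0.19 for Crtc2, a coactivator of CREB, and 0.15 for Mkl2, a coactivator of the serum response factor. Creb1 had 0.10, Srf -0.06, Mef2c 0.05 and Camk2a 0.03, the last with 123415 reads in CHF and 145976 in sham.

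Genes past the rule were not spread evenly over base composition. In the tenth of genes with the highest GC content of their transcripts, 8.04% were lower and 0.374% higher, and in the tenth with the lowest, 1.78% were lower and 3.93% higher. The median GC content was 54.6% among the lower genes, 48.8% among the higher ones and 50.7% among all. Some of the immediate early genes lie at that end, such as Junb (62.6%), Jund (67.1%) and Egr4 (68.2%). With the trend on GC content taken out, 10 of the 25 regulators were lower and 0 higher and the median was -0.15. The log2 ratio of Npas4 was then -0.98, of Arc -0.91, of Nr4a1 -0.89 and of Junb -0.81, while Jund (-0.21) and Egr4 (-0.08) no longer passed the rule and Fos (-0.30) now did. Among lower genes described below, the rule was then also missed by Dbp (-0.29), Neurod2 (-0.26), Nxph3 (-0.25), Sox10 (-0.20) and Sema6b (-0.18), and among higher genes by Hspa4l (0.29), Mgp (0.28), Pclo (0.28), Ndufa4 (0.27) and a partial Myo3a feature (0.29). The complement gene C1qb (0.33) was gained as a higher gene.

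**Figure D3:**
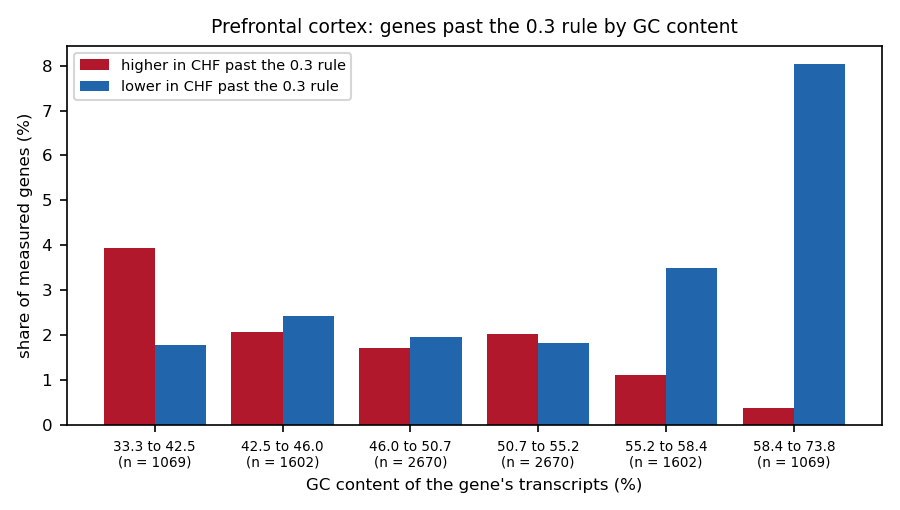
Bars give the share of measured genes that were higher or lower in CHF by the 0.3 rule, in 6 classes of transcript GC content from 33.3% to 73.8%. The lower genes take 8.04% of the class with the highest GC content, and the higher genes take 3.93% of the class with the lowest.

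Above 0, the gene past 0.9 was Prg4, which encodes lubricin, a lubricating proteoglycan of joints that connective tissue cells secrete. It had 279 reads in CHF and 171 in sham, 1.98-fold higher (log2 0.98, interval 0.70 to 1.26). Its annotated span overlaps that of Tpr, a nuclear pore protein gene, by 524 bases on chromosome 1. Tpr had 181 reads in CHF and 333 in sham (log2 -0.61). Their hippocampal ratios were 0.40 and -0.66. No source used here states whether counting used strand, so reads in the shared stretch cannot be assigned to one of them and both values are uncertain.

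Below Prg4 among the highest genes stood Gm6976, a predicted gene (log2 0.81), Krt12, a keratin best known from the cornea (0.71), Tmem215 (0.69), Tmed2 (0.67), Tipin, a partner of the replication checkpoint (0.65), and Hif3a (0.60). Krt12 had 394 unique reads in CHF, 61.6% of its reads, and 286 in sham, 60.7%, and 0.96 as its hippocampal ratio. Many reads of Tmed2 were shared with other genes, 40.0% were unique in CHF and 48.8% in sham, and its unique reads gave an interval of 0.09 to 0.69. Mylk, a kinase of smooth muscle myosin, had a log2 ratio of 0.49 while its unique reads gave an interval of -0.44 to 0.17, so its RPKM rests on reads shared with other genes.

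At the other end, the fifth feature past 0.9 was Erdr1, with 151 unique reads in CHF and 327 in sham on the Y chromosome copy (log2 -0.93, interval -1.13 to -0.56). Only 16.6% and 15.6% of its reads were unique, since the gene lies in a region that the sex chromosomes share. Lor, a protein of the skin barrier, had 309 reads in CHF and 610 in sham (log2 -0.71) and a GC content of 68.3%, and its ratio was -0.48 with the trend on GC content taken out. The histone gene Hist3h2ba (-0.63), Baiap3, a gene of vesicle release (-0.62), and Dlx2, a transcription factor of forebrain interneurons (-0.57), followed, each with fewer than 300 reads in sham.

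Targets of the glucocorticoid receptor, through which corticosterone acts on brain cells, held more higher than lower genes. Of 23 listed, 19 were measured, 6 were higher and 1 lower by the 0.3 rule, against 1.83% and 2.83% of all measured genes. The list's median log2 ratio was 0.25, with 12 above 0 and 7 below. Among the 15 with at least 200 reads in both pools 3 were higher and 1 lower, 8 lay above 0 and 7 below, and the median was 0.14. Mt1 and Mt2, metallothioneins that bind zinc and copper, had 1941 and 808 reads in CHF against 1723 and 724 in sham, with log2 ratios of 0.44 (interval 0.35 to 0.54) and 0.43 (0.29 to 0.58).

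Hif3a, a hypoxia-inducible factor subunit that glucocorticoids also induce, had 176 reads in CHF and 140 in sham (log2 0.60, interval 0.28 to 0.94). Plin4, a lipid droplet protein, had 0.43, Pdk4, a kinase that holds back glucose oxidation, 0.40, and Nfkbia, an inhibitor of NF-κB, 0.35. These 6 genes make up the higher members.

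Fkbp5, a co-chaperone of the receptor, had 734 reads in CHF and 720 in sham, a log2 ratio of 0.30 (interval 0.15 to 0.45) that fell just under 0.3 before rounding. Sgk1 (0.29), Tsc22d3 (0.26), Cdkn1a (0.25) and Zbtb16 (0.14) had intervals above 0 below the threshold. The receptor genes themselves, Nr3c1 (-0.06, interval -0.25 to 0.14) and Nr3c2 (-0.10), had intervals that held 0. Per1, also a target of the receptor, was the lower member. In hippocampus the list's median was 0.13, with 3 genes higher and 1 lower of 18 measured, where the background was 4.74% higher and 3.38% lower over 11086 genes.

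Other stress lists differed from each other. Of 21 measured heat shock proteins and co-chaperones 4 were higher and 0 lower, against 1.83% and 2.83% of all measured genes. The higher ones were the small heat shock protein Hspb8 (0.44), the inducible Hspa1b (0.40), the transcription factor Hsf2 (0.38) and Hspa4l (0.33). Only 26.9% of the reads of Hspa1b were unique in CHF and 25.7% in sham. The list's median was 0.02. No gene of 21 measured in the unfolded protein response passed the 0.3 rule, with a median of 0.09. Of 26 measured hypoxia-inducible genes and HIF subunits, Hif3a and Car12, a carbonic anhydrase (0.33), were higher.

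Inflammatory and immune lists are set beside all measured genes, of which 1.83% were higher and 2.83% lower by the 0.3 rule. No measured microglial or macrophage marker of 18 passed the rule; Cx3cr1, the fractalkine receptor, had 1196 reads in CHF and 1389 in sham (log2 0.06, interval -0.05 to 0.17), and the highest was the complement gene C1qb (0.29). P2ry12, P2ry13 and Gpr34 had 0 reads in both pools and so no ratio. Whether their RNA was absent or their reads were not assigned to them in counting was not tested. Of 19 measured inflammatory mediators, Tnfrsf1b, a TNF receptor (0.37), and Nfkbia were higher and the cytokine Il18 (-0.32) was lower. Only 5 of 30 listed interferon response genes had enough reads, and none of them passed the rule.

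**Figure D4:**
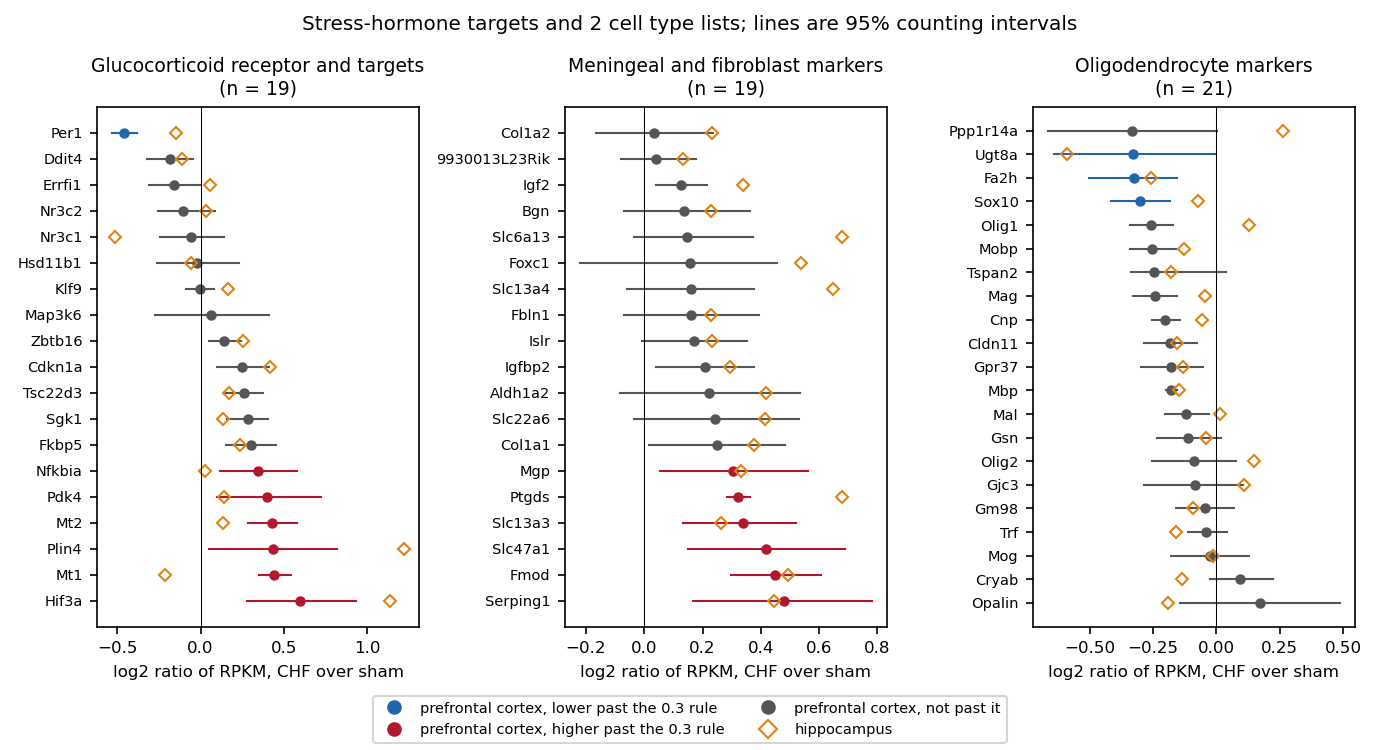
Log2 ratios of RPKM, CHF over sham, of the measured glucocorticoid receptor genes and targets (n = 19), meningeal and fibroblast markers (n = 19) and oligodendrocyte markers (n = 21, 1 not shown), with lines for the 95% counting interval and open diamonds for hippocampus. All 19 meningeal markers lie above 0 and 19 of the 21 oligodendrocyte markers below it.

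Among cell types, markers of the meninges and of fibroblasts stood highest. All 19 measured of 26 listed had ratios above 0, and the median was 0.21. By the 0.3 rule 6 were higher and 0 lower, against 1.83% and 2.83% of all measured genes. Ptgds, which makes prostaglandin D2 and is abundant in the leptomeninges, had 10351 reads in CHF and 9998 in sham (log2 0.32, interval 0.28 to 0.36).

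Fmod, a collagen-binding proteoglycan, had 734 reads in CHF and 649 in sham (log2 0.45). Serping1, an inhibitor of complement (0.48), the transporters Slc47a1 (0.42) and Slc13a3 (0.34), and the matrix protein Mgp (0.31) were the others. The summed RPKM of the list was 205 in CHF and 166 in sham, most of it from Ptgds. In hippocampus all 18 measured members also lay above 0, with a median of 0.36. Of the list, Ogn had 0 reads in both pools, and the collagen gene Col3a1 and the proteoglycan gene Dcn fell under the read minimum. Whether Ogn RNA was absent was not tested. How much of these tissues each pool held was not tested.

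Markers of oligodendrocytes, the cells that make myelin, lay lower. Of 22 measured of 24 listed, 20 had ratios below 0, and the median was -0.18. By the 0.3 rule 3 were lower and 0 higher, against 2.83% and 1.83% of all measured genes. Mbp, the major myelin basic protein, had 31527 reads in CHF and 43142 in sham (log2 -0.18, interval -0.20 to -0.16). Mag, an adhesion protein of the inner myelin wrap, had a log2 ratio of -0.24.

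The genes past the rule were Ugt8a and Fa2h, enzymes of myelin lipid synthesis (-0.33 each), and Sox10, a transcription factor of the lineage (-0.30). With TMM or DESeq2 factors on unique reads only 1 of them, Fa2h, passed it, and with a pseudocount of 0.1 RPKM 0 did, while 20 ratios stayed below 0 in each of these settings. Opalin (0.17, interval -0.14 to 0.49) and Cryab (0.09) were above 0, and Mog (-0.03) was near it. The hippocampal median was -0.11. Outside the list, Hapln2, a link protein at the nodes of myelinated axons, had 320 reads in CHF and 543 in sham (log2 -0.49, interval -0.69 to -0.29). Its hippocampal ratio was 0.30 (interval 0.13 to 0.46). Adamts4, a metalloprotease that oligodendrocytes express and also outside the list, had 294 reads in CHF and 517 in sham (-0.55). In hippocampus its ratio was 0.06 (interval -0.12 to 0.25). Markers of oligodendrocyte precursors had a median of -0.04 with none of 9 past the rule.

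Astrocyte, neuron and endothelial lists stayed near the middle. None of 23 astrocyte markers and none of 11 neuron markers passed the rule, with medians of 0.03 and 0.09. Gfap, the astrocyte filament protein, had 1927 reads in CHF and 2271 in sham (log2 0.03, interval -0.05 to 0.13). Of 25 endothelial markers only Ly6a (0.38) passed it, and the list's median was 0.00. Of 13 markers of pericytes and smooth muscle, Abcc9, a subunit of potassium channels (0.43), and Anpep (0.38) were higher.

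Layers of the cortex leaned in different directions by small amounts. The median was 0.04 for upper layer markers (n = 10), -0.10 for layer 5 (n = 12) and -0.12 for layer 6 (n = 11), with 1 gene past the rule in all, Nxph3 (-0.33), a secreted neurexin ligand of layer 6. Among markers of excitatory neurons Camk2n1, an inhibitor of CaM kinase II, had 55286 reads in CHF and 53239 in sham (log2 0.33, interval 0.31 to 0.35). Neurod2, a transcription factor of the same neurons, had 2803 reads in CHF and 4225 in sham (log2 -0.32, interval -0.39 to -0.25). One cell type thus held well covered genes in both directions.

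**Figure D5:**
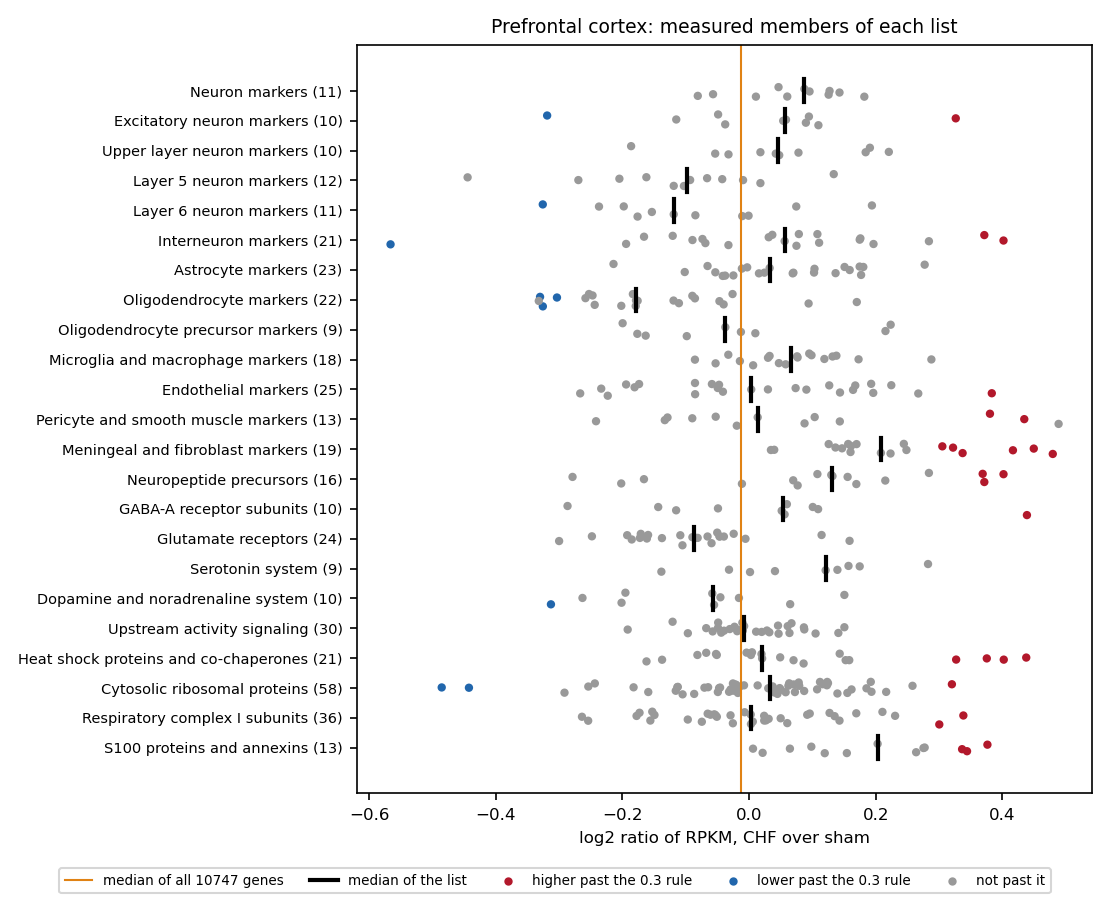
Points are measured members of 23 lists by their log2 ratio of RPKM, CHF over sham, with black bars for list medians and an orange line for the median of all 10747 genes. Meningeal and fibroblast markers (0.21) and S100 proteins and annexins (0.20) have the highest medians shown and oligodendrocyte markers (-0.18) the lowest.

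Among interneuron markers 2 peptide genes were higher and Dlx2 was lower, of 21 measured. Npy, neuropeptide Y, had 1209 reads in CHF and 1105 in sham (log2 0.40, interval 0.29 to 0.52), against a hippocampal ratio of -0.19 (interval -0.32 to -0.06). Tac2, the neurokinin B precursor, had 0.37, and Pdyn, the dynorphin precursor, 0.37. With these 3 higher and 0 lower among 16 measured neuropeptide precursors, the list's median was 0.13. Sst, somatostatin (0.11), Vip (0.28), Pvalb (0.08), and the GABA-synthesizing enzymes Gad1 (0.06) and Gad2 (0.18) did not reach 0.3.

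Few transmitter receptors passed the rule. Of 10 measured GABA-A receptor subunits Gabra2 was higher, with 171 reads in CHF and 155 in sham (log2 0.44, interval 0.09 to 0.74), while its hippocampal ratio was -0.71 (interval -0.94 to -0.50). The other 9 subunits did not pass it, and the lowest of them was Gabrg3 (-0.29). Of 24 measured glutamate receptor genes none passed the rule, but 22 had ratios below 0 and the median was -0.09; with the trend on GC content taken out, 18 lay below 0.

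No serotonin gene of 9 measured passed the rule. Htr1a, an inhibitory serotonin receptor, had -0.03 (interval -0.18 to 0.12) and Htr2a, an excitatory one, 0.28 (interval -0.07 to 0.64, from 137 reads in CHF and 136 in sham). The serotonin transporter Slc6a4 and the synthesizing enzyme Tph2, which act in brainstem neurons, had 0 and 12 reads in CHF against 3 and 10 in sham. Of 10 measured dopamine and noradrenaline genes Adra1a, an adrenergic receptor, was lower (-0.31), and Drd1a, a dopamine receptor, had -0.02.

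At the synapse, Gphn, the scaffold gephyrin of inhibitory synapses, had 3065 reads in CHF and 4787 in sham (log2 -0.38, interval -0.43 to -0.30), and in hippocampus 7177 reads in CHF and 3969 in sham (log2 0.68). It was the only one of 18 postsynaptic scaffolds past the rule. Pclo, a scaffold of the presynaptic active zone, was the only one of 26 presynaptic genes past it, with 2570 reads in CHF and 2519 in sham (log2 0.30). Cbln2, a synaptic organizer that binds neurexins, had 1121 reads in CHF and 975 in sham (log2 0.47, interval 0.35 to 0.60).

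Semaphorins, metalloproteases, ephrins and cadherins held lower genes and no higher ones by the 0.3 rule, while 2 of 14 integrins, Itga10 (0.37) and Itga11 (0.36), were higher. Of 25 semaphorins and plexins 3 were lower, Sema3e (-0.47), Sema4c (-0.46) and Sema6b (-0.32, with 4073 reads in CHF and 6126 in sham), and 0 higher. The family's median was -0.04, and 0.00 with the trend on GC content taken out. Of 15 metalloproteases and inhibitors 3 were lower, Adamts4, Adamts16 (-0.53) and Adamts20 (-0.48), and 0 higher. Of 17 ephrins and Eph receptors 13 lay below 0 and Efna3 was lower (-0.33). Of its reads 57.9% were unique in CHF and 52.4% in sham, and its unique reads gave a log2 ratio of -0.18, so with unique reads alone the family had 0 lower genes. The cadherins Cdh18 (-0.51) and Cdh10 (-0.40) were lower of 11 measured.

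The S100 proteins and annexins, calcium-binding proteins found in glia and connective tissue among others, all lay above 0 in 13 measured genes. Their median was 0.20, and S100a13 (0.38), Anxa2 (0.34) and S100a6 (0.34) were higher by the 0.3 rule. With the trend on GC content taken out, 12 lay above 0. Clock genes held 3 lower and 0 higher of 20 measured: Per1, Dbp, a clock output factor with 1205 reads in CHF and 1944 in sham (-0.39), and Bhlhe41, a repressor in the clock (-0.36). The times of day at which the pooled mice were killed were not used here.

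Large housekeeping families were centred near 0. Cytosolic ribosomal proteins (n = 58) had a median of 0.03, respiratory complex I subunits (n = 36) 0.00, proteasome subunits (n = 35) 0.00, mitochondrial ribosomal proteins (n = 72) 0.04 and solute carriers (n = 192) 0.00. A few single members stood apart, such as Rps2, with 1202 unique reads in CHF and 2000 in sham (log2 -0.44), and Ndufa4, with 2361 and 2315 in CHF and sham (0.30). Copies of ribosomal protein genes share reads, so such values are uncertain. ATP synthase subunits had a median of 0.10 and cytochrome c oxidase subunits one of 0.12.

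Of the 10554 genes measured in both regions, 189 were higher in prefrontal cortex and 486 in hippocampus, and 30 were higher in both, 15.9% of the prefrontal and 6.17% of the hippocampal genes. Over all genes measured in both, 4.60% were higher in hippocampus and 3.34% lower. Lower in both were 8 genes, 2.73% of 293 prefrontal and 2.27% of 352 hippocampal genes. In opposite directions, 29 genes were lower in prefrontal cortex and higher in hippocampus, 9.90% of the 293 prefrontal genes. Another 15 were higher in prefrontal cortex and lower in hippocampus, 7.94% of the 189 prefrontal genes. Both shares also lay above those over all genes, 4.60% and 3.34%. The libraries of the regions are separate, but the pools may hold the same mice.

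The 19 genes that the study named for the hippocampus were chosen on the hippocampal ratios, so only their prefrontal values are of interest. Their prefrontal median was 0.16, with 6 higher by the 0.3 rule and 0 lower. Krt12 (0.71), Hif3a (0.60) and Plin4 (0.43) were higher in both regions, while Sh3bgrl (0.44), Fam126b (0.38) and Ipo7 (0.36) were higher in prefrontal cortex and had hippocampal ratios of -1.22, -1.23 and -0.96.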

How the data were processed

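RNA of prefrontal cortex, hippocampus and left ventricle was pooled per group, stripped of ribosomal RNA and sequenced, 1 library per group. For each feature the authors deposited raw counts of unique, total and exon reads, obtained with CLC Genomics Workbench on GRCm38.p1. Neither its version nor its use of strand in counting is given in the sources used here. In the deposited RPKM, exon reads were scaled by listed length, which is the whole genomic span including introns in 99.7% of 21888 features with one, and by total gene reads. Levels of different genes therefore depend on intron length, which cancels in the ratio of a gene. Reads from introns within that span may be among those counted. How much they contribute to a ratio was not tested. A further 574 features with 100 reads in both pools have no length and were left out. Single values of 2 list members are not reported here, though they count in their lists. The log2 columns of the authors' comparison tables were not used.

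Log2 ratios, exact Clopper-Pearson intervals and counts past 2 rules were computed with scipy 1.17.1, statsmodels 0.14.6, pandas 2.3.3, numpy 2.4.6 and matplotlib 3.10.9 under Python 3.11.15. With 1 library per group no p-value was computed. Alternatives used factors of edgeR 4.0.16 (TMM) and DESeq2 1.42.0 in R 4.3.3, other read counts, read minimums, pseudocounts and thresholds, and lowess trends on GC content of GENCODE vM21 transcripts (matched for 99.4% of measured genes), length and abundance. The comparison, 48 gene lists and 34 symbol families were chosen with earlier results of these data known. Genes named were those the study names for the brain, the 20 highest and 20 lowest ratios, up to 6 members with the largest ratios and the most abundant member of each list, and members of the immediate early, glucocorticoid, GABA-A, serotonin and dopamine lists. Others, such as Creb1, Mog, Gfap, Gad1, Tpr's overlap with Prg4 and genes set beside relatives, were named after their values were seen.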

Additional observations from a re-analysis of the deposited data

Results flagged for a closer look

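Genes that passed the 0.3 rule in prefrontal cortex were looked at again when their hippocampal ratio was past 0.9 in the opposite direction. For the left ventricle the prefrontal ratio had to be past 0.9 as well. Genes with a smaller prefrontal ratio that ran opposite to the ventricle were thus not flagged. Examples are Gadd45g (-0.39 in prefrontal cortex, 1.25 in left ventricle) and Abcc9 (0.43 in prefrontal cortex, -1.06 in left ventricle). Nr4a1 had a log2 ratio of -0.92 in prefrontal cortex and 2.40 in the left ventricle, where it had 2501 reads in CHF and 369 in sham. Junb had -0.93 in prefrontal cortex and 1.49 in the left ventricle, with 1188 reads in CHF and 329 in sham there. Between the brain regions, Sh3bgrl, an SH3 domain-binding protein, had 0.44 in prefrontal cortex and -1.22 in hippocampus (235 reads in CHF, 488 in sham), Fam126b, a subunit of a lipid kinase complex, 0.38 and -1.23 (177 in CHF, 378 in sham), and Ipo7, a nuclear import receptor, 0.36 and -0.96 (149 in CHF, 257 in sham). The counting intervals of each pair lay on opposite sides of 0. With 1 library per group and tissue, none of these differences between tissues was tested.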

How the results depend on the processing

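No paired analysis was possible because each group has 1 library. Across 14 alternatives no list median at least 0.1 from the median of all genes changed its sign among 74 lists, and no gene of 138 named that passed the 0.3 rule did so in the 10 settings that apply to single genes; 29 of 1378 gene values left the gene's counting interval. Past 0.9 there were 6 genes, and 5 with TMM, DESeq2 factors or CPM of unique reads. There were 3 with the trend on GC content taken out, where Junb and Nr4a1 no longer passed and Erdr1 had no GC content, 865 with no read filter, which adds genes with few reads, and 0 at a threshold of 1.0. By the 0.3 rule there were 501 genes, against 273 with at least 200 reads in both pools, 877 with no read filter, 268 with a pseudocount of 0.1 RPKM, 1172 at a threshold of 0.2 and 174 at 0.4. TMM moved the split to 238 higher and 276 lower and DESeq2 factors to 239 and 275, while shifting the median ratio by 0.01. With the GC trend taken out 178 were higher and 275 lower, of which 160 and 234 were also called without it. With at least 200 reads in both pools the higher effectors fell to 1 of 19, the lower phosphatases to 2 of 12, the lower metalloproteases to 1 of 11 and the higher S100 proteins and annexins to 1 of 10, and the hippocampal genes named by the study held 2 higher of 10 with a median of 0.09. Of single genes near 0.3, Egr4 was lost with unique reads under each scaling, and Adra1a, Sox10 and Ugt8a with TMM or DESeq2 factors, while Fkbp5 was gained with unique reads. Depth limits the 0.3 rule: the median interval reached 0.30 to each side among genes with a mean of 100 to 300 reads and 0.05 among those with 3000 or more.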

Other observations

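Some features outside the read rule also stood apart. Cbln1, a synaptic organizer related to Cbln2, had 75 unique reads in CHF and 211 in sham (log2 ratio of scaled reads -1.22, interval -1.62 to -0.83), and its hippocampal ratio was -0.01. Of 489 genes with 100 reads in 1 pool only, 0 were higher and 4 lower past 0.9. These 4 were Cbln1, a partial Msl2 feature, Col6a4 (-1.09) and St8sia1, a ganglioside synthase (-0.99). Such genes entered through the pool where they had more reads, and the sham library was the deeper one. The split thus depends on the selection and is not read as a result about direction. Of the 574 features without a length, 43 were higher and 27 lower by the 0.3 rule and 0 passed 0.9; the largest was C130046K22Rik, with 206 reads in CHF and 149 in sham (0.74).

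Some further members of the immediate early list that were near 0 in prefrontal cortex had ratios above 0 in the left ventricle. Egr1 had -0.07 in prefrontal cortex and 1.33 in left ventricle, Btg2 -0.08 and 1.20, and Fosl2 0.09 and 1.18. Ratios above 0 were common in the ventricle, where the median over 9771 genes was 0.22. Past 0.9, 1027 ventricular genes were higher and 150 lower. Whether the immediate early list as a whole stood apart from that background was not tested.

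The feature with the most reads, a partial Myo3a feature, had 221970 unique reads in CHF and 215330 in sham, a log2 ratio of 0.31 (interval 0.31 to 0.33). It had 253834 unique reads in CHF and 255206 in sham in hippocampus (log2 -0.18). In left ventricle it had 1763412 in CHF and 2359824 in sham (log2 -0.78). Whether these reads come from Myo3a RNA was not tested, so its ratio is not taken as one of that gene.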
